A study of Mus musculus with 6 samples.

Results

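Mineral in the spine depends on a small set of genes that move or process phosphate, pyrophosphate and citrate, and 8 of them are described here in intervertebral discs (IVDs) of Col2Cre; Adgrg6 f/f mice: Slc13a5, Ank, Enpp1, Slc20a1, Slc20a2, Alpl, Phospho1 and Phex. They were taken by gene symbol from a count table of 43472 symbols, which lists all 8, and 7 passed the filter on low counts. The selection was not blind to the data, since Slc13a5 had been seen lower in mutant IVDs. Slc13a5 was thus chosen by its counts in mutant against control IVDs, which are given as a description with no test, while the other 7 genes were included for their roles.

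RNA-seq compared 3 mutant with 3 control pools of IVDs, and a pool held the discs of 2 to 3 mice of strain C57B6/J at postnatal day 20. Mutant mice carried 2 floxed alleles of Adgrg6, an adhesion G protein-coupled receptor listed by its older symbol Gpr126, together with Col2Cre, a Cre recombinase under the type II collagen promoter that acts in the cartilage lineage of the spine. Control mice are Cre (-) littermates in the study's description, wild type in the genotype labels and Col2Cre controls in the sample titles, and whether they carried floxed alleles is not given in the sources used here. Whole discs of the thoracic and lumbar spine were used, so that nucleus pulposus, annulus fibrosus and cartilage endplate were measured together and a lower level can mean fewer cells of a type or less RNA per cell, which cannot be told apart in such samples.

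Mineral forms where inorganic phosphate is plentiful and inorganic pyrophosphate, a potent inhibitor of crystal growth, is scarce. Cells supply phosphate through sodium-phosphate cotransporters and through phosphatases in matrix vesicles. They supply pyrophosphate by cleaving extracellular ATP and by exporting ATP and pyrophosphate through Ank, which also exports citrate. Citrate binds to the surface of bone mineral, and cells take it up from outside through Slc13a5. Healthy discs stay free of mineral, whereas the growth plate beside them calcifies its cartilage. The study names calcification of the cartilage endplate as a change that may accompany disc degeneration.

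Each library held between 9061491 and 12017008 counts on genes. Levels are CPM, a gene's share of the counts of its library after library sizes were scaled by the trimmed mean of M values (TMM). Group levels are means ± SD over 3 libraries, and fold changes set mutant over control. The cartilage and disc markers Col2a1, Acan, Sox9, Comp, Hapln1, Matn3 and Chad summed to between 79435 and 140007 CPM in every library, most of it Col2a1, and 8 nucleus pulposus and notochord markers to between 2397 and 5823 CPM. Of the latter, T was at 130 to 450 CPM and Krt19 at 333 to 834 CPM, while Noto was under 1 CPM in all 6 libraries. Control replicate 1 stood apart by its skeletal muscle markers, 3609 CPM in sum against 65.0 to 148 CPM in the other 5 libraries, so values of the 8 genes without it are given where they change a call or a sign or move by over 1.5 times. Gpr126 itself gave 109 ± 14.7 CPM in controls against 122 ± 16.1 CPM in mutants, and counts over the whole gene do not measure the deleted part.

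Slc13a5, the sodium-dependent citrate transporter of the plasma membrane, lies on chromosome 11 from 72241989 to 72267222 on the reverse strand (GRCm38). It was at 117, 111 and 87.5 CPM in control replicates 1, 2 and 3 and at 55.3, 52.6 and 46.6 CPM in mutant replicates 1, 2 and 3. All mutant libraries lay below all control libraries, and the highest mutant library was well under the lowest control library. Control IVDs averaged 105 ± 15.6 CPM and mutant IVDs 51.5 ± 4.43 CPM. The log2 fold change of -1.03 ± 0.18 (SE) puts the mutant level at 49.0% of the control level. The noncoding gene 1700051A21Rik on the other strand shares 473 exon bases with Slc13a5, or 9.57% of those of Slc13a5, but had only 6 to 25 counts per library against 439 to 1119 for Slc13a5. Leaving out any 1 library kept the log2 fold change between -1.14 and -0.94.

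**Figure D1:**
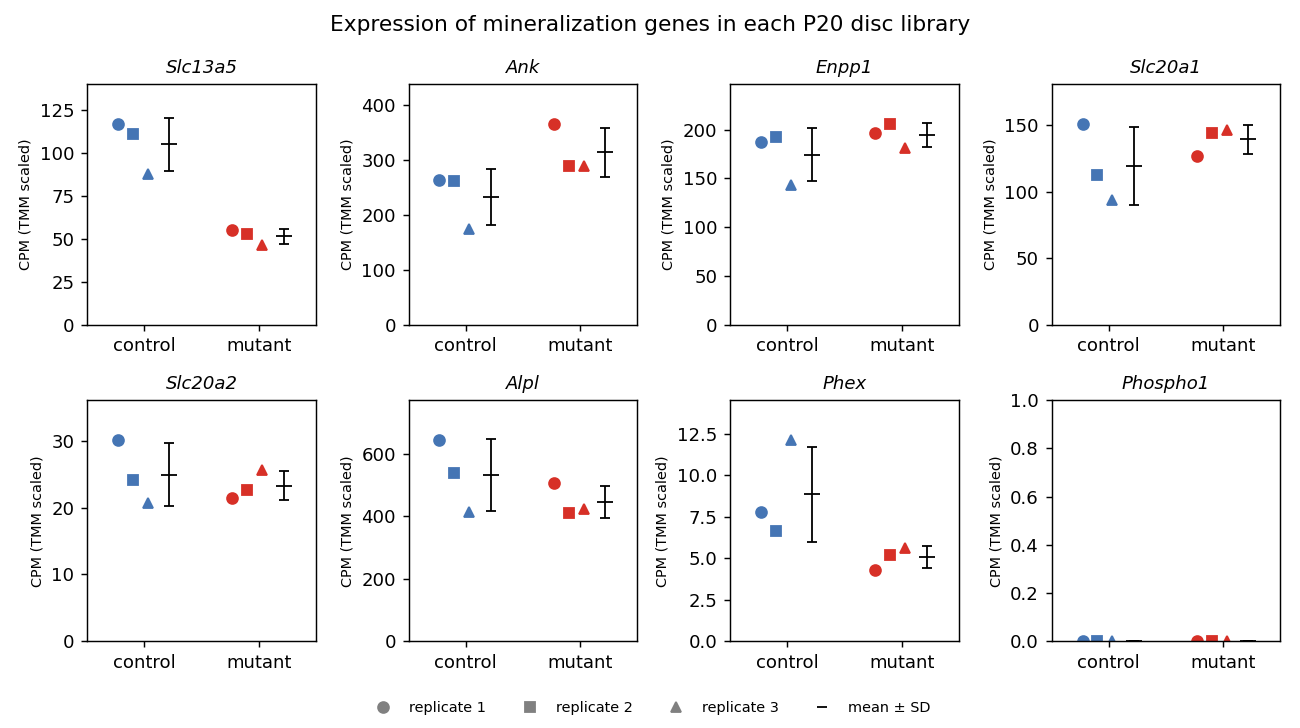
Level of each of the 8 genes in every library, in CPM with TMM-scaled library sizes on the vertical axis, for control (blue) and mutant (red) pools. Symbols mark the replicate number and the bar shows the mean ± SD of 3 libraries. Slc13a5 separates into controls at 87.5 to 117 CPM and mutants at 46.6 to 55.3 CPM, while Phospho1 is at 0 in all 6 libraries.

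The sequence just upstream of the start of Slc13a5 is shown with those of Ank and Phex, whose libraries also did not overlap between genotypes, and of Enpp1, which carried 2 of the motifs searched for. The sequences are RefSeq's on GRCm38.p6, read 5′ to 3′ on the strand of the gene and ending before the first annotated base of the gene in GENCODE M21. They cover chr11:72267223-72267411 for Slc13a5 (reverse strand), chr15:27466427-27466676 for Ank (forward strand), chr10:24712160-24712409 for Enpp1 (reverse strand) and chrX:157415313-157415536 for Phex (reverse strand), and capitals mark motif matches.
Slc13a5: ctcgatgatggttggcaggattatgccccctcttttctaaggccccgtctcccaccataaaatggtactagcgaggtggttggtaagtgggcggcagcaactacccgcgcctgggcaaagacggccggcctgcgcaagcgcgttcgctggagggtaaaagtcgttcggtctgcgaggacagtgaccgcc
Ank: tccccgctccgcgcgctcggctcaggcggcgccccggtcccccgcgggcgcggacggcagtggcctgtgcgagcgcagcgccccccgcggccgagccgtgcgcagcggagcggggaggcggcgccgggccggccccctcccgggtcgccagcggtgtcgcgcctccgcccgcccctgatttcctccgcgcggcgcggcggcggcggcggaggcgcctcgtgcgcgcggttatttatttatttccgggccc
Enpp1: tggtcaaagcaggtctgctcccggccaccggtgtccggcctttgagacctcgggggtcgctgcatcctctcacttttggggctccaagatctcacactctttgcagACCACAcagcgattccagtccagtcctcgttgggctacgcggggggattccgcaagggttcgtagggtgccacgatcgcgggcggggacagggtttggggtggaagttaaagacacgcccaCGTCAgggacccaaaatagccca
Phex: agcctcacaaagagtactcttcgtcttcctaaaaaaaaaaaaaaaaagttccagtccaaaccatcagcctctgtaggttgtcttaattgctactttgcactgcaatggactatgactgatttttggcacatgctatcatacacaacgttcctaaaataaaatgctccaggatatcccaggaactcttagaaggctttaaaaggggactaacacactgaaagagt
Of these, the Ank sequence was the richest in G and C (81.2%), against 60.3% for Slc13a5, 61.2% for Enpp1 and 38.8% for Phex, where the median over all promoters in the RefSeq table was 52.4%. Searches covered 250 bases before the most upstream RefSeq start of each gene on both strands, for TTCNNNGAA (the STAT element), TGACG (the core of the cAMP response element), TGTGGT (the Runx element) and TATAAA (the TATA box), which occurred in 7.02%, 17.8%, 14.0% and 12.4% of 32851 promoters. The STAT and cAMP elements were included because the receptor can raise cAMP and the study examined STAT3. In Enpp1, CGTCA at position -23 is the reverse complement of TGACG and ACCACA at -144 that of TGTGGT, counted from the RefSeq start. Slc20a1 held TGACG at -69 and TGTGGT at -77, and Phospho1 and Phex held TGACG at -24 and -20, the last inside the 26 bases that GENCODE counts as part of the gene and that are not shown. Slc13a5, Ank and Alpl held none of these letters in this window, and no member held TTCNNNGAA there. A match is a run of letters and not a measured binding site. The RefSeq table had promoters for 7 of the 8 genes, without Slc20a2.

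Of the 7 members other than Slc13a5, 6 could be tested, and 1 of them, Phex, passed an unadjusted p under 0.05 in edgeR, against 7.21% of all 16152 genes tested. None passed after Benjamini-Hochberg adjustment over all genes, where 0.00619% of genes did. Groups did not overlap for 2 of the 6 tested genes, Ank and Phex, against 11.4% of all genes. Of the 6, 3 had higher and 3 had lower means on the log2 scale in mutants, with a median log2 fold change of 0.03 beside -0.01 over all genes. Nothing in the samples marks the pools as paired, and p-values measure only the spread between these pools.

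**Figure D2:**
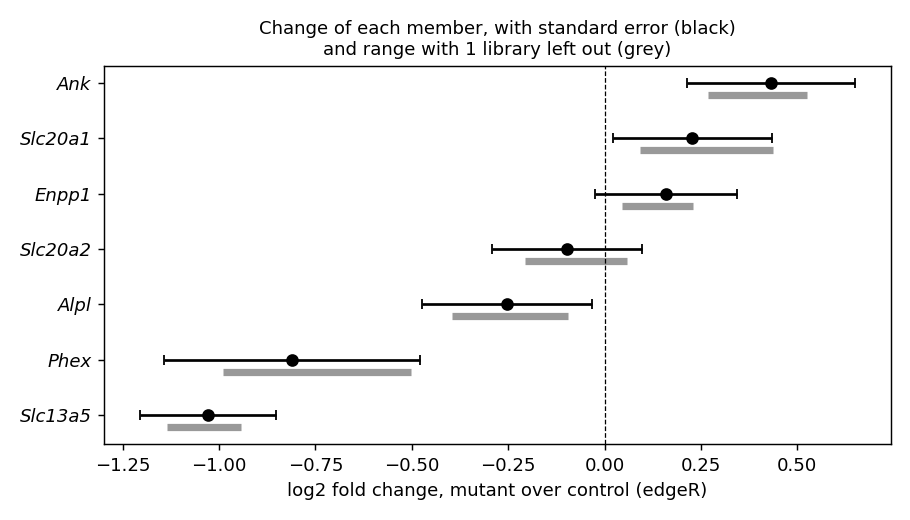
Log2 fold change of mutant over control IVDs from edgeR for the 7 members with enough counts, with its standard error in black and, in grey, the range when any 1 of the 6 libraries is left out. Slc13a5 and Phex lie at -1.03 and -0.81, Ank at 0.43, and only the grey bar of Slc20a2 crosses 0.

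Pyrophosphate is supplied by Ank and Enpp1. Ank, the multipass membrane protein through which ATP, pyrophosphate and citrate leave the cell, lies on chromosome 15 from 27466677 to 27594909 on the forward strand. Its level was 262, 261 and 174 CPM in control replicates 1, 2 and 3 and 365, 288 and 287 CPM in mutant replicates 1, 2 and 3. Each mutant library was above each control library, with control replicate 3 far below the other 2 controls. Controls averaged 232 ± 50.5 CPM and mutants 313 ± 44.6 CPM, and the log2 fold change of 0.43 ± 0.22 (SE) did not pass the test in edgeR at the unadjusted threshold of 0.05 (adjusted p = 0.710), and its 95% interval ran from -0.05 to 0.92. Without control replicate 3 the log2 fold change of Ank was 0.27.

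Enpp1, the ectoenzyme that cleaves ATP into AMP and pyrophosphate, lies on chromosome 10 from 24637914 to 24712159 on the reverse strand. It was at 188, 193 and 143 CPM in the control libraries and at 197, 206 and 181 CPM in the mutant libraries. The genotypes overlapped, and control replicate 3 was again the lowest library. Averages of 174 ± 27.3 CPM for controls and 195 ± 12.5 CPM for mutants gave a log2 fold change of 0.16 ± 0.19 (SE), with an adjusted p = 0.857 from edgeR and a 95% interval from -0.25 to 0.57. Without control replicate 3 the log2 fold change of Enpp1 was 0.04.

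Phosphate enters cells through Slc20a1 and Slc20a2, the widely expressed type III sodium-phosphate cotransporters. Slc20a1, on chromosome 2 from 129198764 to 129211616 on the forward strand, was at 151, 112 and 93.4 CPM in control and at 127, 144 and 146 CPM in mutant replicates 1, 2 and 3. Its highest and its lowest library were both controls. Controls averaged 119 ± 29.3 CPM and mutants 139 ± 10.6 CPM, so the log2 fold change was 0.23 ± 0.21 (SE, adjusted p = 0.825 from edgeR, 95% interval from -0.23 to 0.69). Without control replicate 1, the library with muscle RNA, the log2 fold change was 0.44 and passed the unadjusted threshold, and without control replicate 3 it was 0.09 and did not.

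Slc20a2, on chromosome 8 from 22476788 to 22569612 on the forward strand, was at 30.1, 24.1 and 20.7 CPM in control and at 21.5, 22.7 and 25.7 CPM in mutant libraries. The genotypes covered much the same range, with means of 25.0 ± 4.74 CPM and 23.3 ± 2.17 CPM. The log2 fold change was -0.10 ± 0.19 (SE, adjusted p = 0.932 from edgeR, 95% interval from -0.53 to 0.33), and without control replicate 1 it was 0.06 and without control replicate 3 -0.21, so no direction can be given.

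Counts of Slc20a1 may include reads of a gene on the other strand. The library kit does not mark strand, and 9830144P21Rik, a noncoding gene on chromosome 2 from 129205958 to 129230579 on the reverse strand, shares 452 exon bases with Slc20a1, or 8.10% of the exon bases of Slc20a1. That gene had 0.816 to 0.964 times as many counts as Slc20a1 in every library, and over the 6 libraries its log2 CPM correlated with that of Slc20a1 at r = 0.937. Reads of the pair cannot be told apart where they overlap. Beyond the shared exon bases, the whole spans of the pair overlap from 129205958 to 129211616. How much of either count comes from the other gene was not tested.

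Phosphatases act on the other side of the balance. Alpl, the tissue-nonspecific alkaline phosphatase that removes pyrophosphate and frees phosphate, lies on chromosome 4 from 137741733 to 137796384 on the reverse strand. It was at 643, 539 and 414 CPM in control and at 506, 410 and 423 CPM in mutant replicates 1, 2 and 3. Control replicate 3 fell among the mutant libraries while control replicates 1 and 2 were above them all. Controls averaged 532 ± 114 CPM and mutants 446 ± 51.9 CPM, and the log2 fold change was -0.25 ± 0.22 (SE, adjusted p = 0.815 from edgeR, 95% interval from -0.74 to 0.24). Without control replicate 1 the log2 fold change of Alpl was -0.10 and without control replicate 3 it was -0.40, and neither passed the unadjusted threshold.

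Phospho1, the matrix vesicle phosphatase that releases phosphate from phosphocholine and phosphoethanolamine, lies on chromosome 11 from 95824499 to 95832140 on the forward strand and had 0 counts in all 6 libraries. A count of 0 allows up to 3 counts, which is 0.233 to 0.341 CPM depending on the library, but for this gene the count says little about its RNA. In GENCODE M21 all of Phospho1 lies inside Zfp652, a zinc finger gene on the same strand that runs from 95712673 to 95835115, and 1818 exon bases, 89.6% of those of Phospho1, are also exon of Zfp652. Of 310 protein-coding genes enclosed by a listed gene that runs the same way, 288 (92.9%) were likewise at 0 throughout. This was so for 15.3% of the 673 enclosed only by a gene that runs the other way and for 13.6% of the 19771 enclosed by none. No statement on Phospho1 expression can be made from these counts.

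Reads of Phospho1 may also fall on the genes around it. Zfp652 itself was at 50.8 to 65.2 CPM, with a log2 fold change of -0.06 that was 0.06 without control replicate 1. On the reverse strand Abi3, an adaptor protein of the actin cytoskeleton, shares 1708 exon bases with Phospho1, which is 41.1% of the exon bases of Abi3, and was at 327, 286 and 200 CPM in control and at 224, 145 and 234 CPM in mutant libraries. Its averages of 271 ± 64.8 and 201 ± 48.9 CPM gave a log2 fold change of -0.43 ± 0.25 (SE, adjusted p = 0.746 from edgeR). Leaving out control replicate 1 gave -0.27 for Abi3 and leaving out mutant replicate 2 gave -0.24. Leaving out control replicate 3 gave -0.60, which passed the unadjusted threshold. How much of the Abi3 count comes from Phospho1 was not tested.

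Phex, an endopeptidase of osteoblasts and osteocytes whose loss causes phosphate wasting, lies on chromosome X from 157162075 to 157415312 on the reverse strand. At 38 to 155 counts per library it was the least abundant of the members with counts. Its level was 7.81, 6.66 and 12.1 CPM in control and 4.32, 5.22 and 5.63 CPM in mutant replicates 1, 2 and 3. The groups did not overlap, and control replicate 3, the lowest control for the 6 other members with counts, was the highest for Phex. Controls averaged 8.86 ± 2.88 CPM and mutants 5.06 ± 0.668 CPM, and the log2 fold change was -0.81 ± 0.33 (SE, 95% interval from -1.55 to -0.07). It passed the unadjusted but not the adjusted threshold in edgeR (adjusted p = 0.676). Without control replicate 3 it was -0.50 and did not pass, and 6 of 11 alternatives took the unadjusted p above 0.05. The pools also differed in sex. Xist was at 0.734 CPM in mutant replicate 2 and at 99.9 to 210 CPM in the other 5 libraries, and the Y-linked Ddx3y, Eif2s3y and Kdm5d were at 0 in mutant replicate 3 alone. Phex had a log2 fold change of -0.83 when mutant replicate 2 was left out and of -0.90 when mutant replicate 3 was, and it passed the unadjusted threshold in neither case.

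Among the tested members the spread within a genotype had a common shape. The SD of the CPM was smaller in mutant than in control libraries for all 7 genes, as it was for 51.0% of all 16152 genes tested. Control replicate 3 was the lowest control for Slc13a5, Ank, Enpp1, Slc20a1, Slc20a2 and Alpl, as it was for 34.2% of all genes, and its TMM factor of 1.149 was the highest of the 6. In the same library the disc and cartilage markers were at 79435 CPM, against 127108 and 137872 CPM in control replicates 1 and 2 and 113493 to 140007 CPM in the mutants. Annulus and tendon markers were lowest of the controls there (6763 CPM against 16889 and 12142 CPM), nucleus pulposus and notochord markers were highest (4960 CPM against 3594 and 2397 CPM), and their part in the members' values was not tested.

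Levels of different genes were compared per kilobase of exon. In control IVDs the order was Alpl (132 ± 28.4 CPM per kilobase), Ank (64.4 ± 14.0), Slc20a1 (21.3 ± 5.26), Slc13a5 (21.3 ± 3.15), Enpp1 (16.99 ± 2.66), Slc20a2 (4.02 ± 0.762) and Phex (1.41 ± 0.457). Slc20a1 and Slc13a5 overlapped in their libraries, as did Slc13a5 and Enpp1, and the other neighbours did not. In mutant IVDs Alpl was at 111 ± 12.9 and Ank at 86.8 ± 12.4 CPM per kilobase, and Slc13a5, at 10.4 ± 0.896, stood below Enpp1, at 19.0 ± 1.22, in all 3 libraries. Slc20a1 was at 25.0 ± 1.91, Slc20a2 at 3.75 ± 0.349 and Phex at 0.804 ± 0.106 CPM per kilobase, and no neighbours in this order overlapped. Slc13a5 therefore moved from the level of Slc20a1 to a place between Enpp1 and Slc20a2, a change that follows from the values that chose it.

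**Figure D3:**
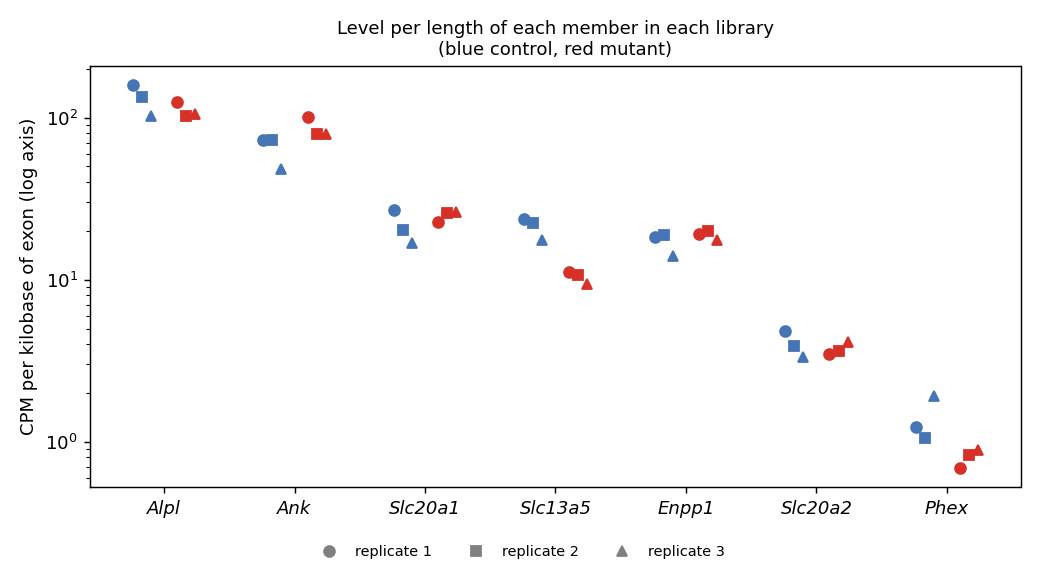
Level per length of the 7 members with counts in each library, in CPM per kilobase of exon on a log axis, with controls in blue, mutants in red and symbols for the replicate number. Alpl and Ank are the most abundant members in both genotypes, and Slc13a5 drops from about the level of Slc20a1 in controls to below Enpp1 in mutants.

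Ratios between members within a library do not depend on how libraries are scaled to each other. The log2 ratio of Alpl, which removes pyrophosphate, to Enpp1, which makes it, was 3.12, 2.83 and 2.88 per kilobase in control and 2.71, 2.34 and 2.57 in mutant replicates 1, 2 and 3. All mutant values were below all control values, with means of 2.95 ± 0.16 and 2.54 ± 0.18 and a difference of -0.41. The log2 ratio of Slc20a1 to Slc20a2 was 2.48, 2.38 and 2.33 in control and 2.72, 2.82 and 2.67 in mutant libraries, again without overlap. Its means were 2.40 ± 0.08 and 2.74 ± 0.08, a difference of 0.34. The ratio thus separated the genotypes although neither transporter did so alone. However, the reads that Slc20a1 may share with 9830144P21Rik enter this ratio, and the ratios were not tested. How often ratios of other gene pairs separate the genotypes was not counted.

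The ratio of Ank to Enpp1 sets export of pyrophosphate beside its production. On the log2 scale it was 1.99, 1.95 and 1.79 per kilobase in control and 2.40, 1.99 and 2.17 in mutant libraries. The lowest mutant and the highest control were equal to 2 decimals, so the groups barely separated. Slc13a5 to Ank, which compares uptake of citrate with its export, was at -1.62, -1.69 and -1.45 in control and at -3.17, -2.91 and -3.08 in mutant libraries, a difference of -1.47 that contains the change for which Slc13a5 was selected.

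**Figure D4:**
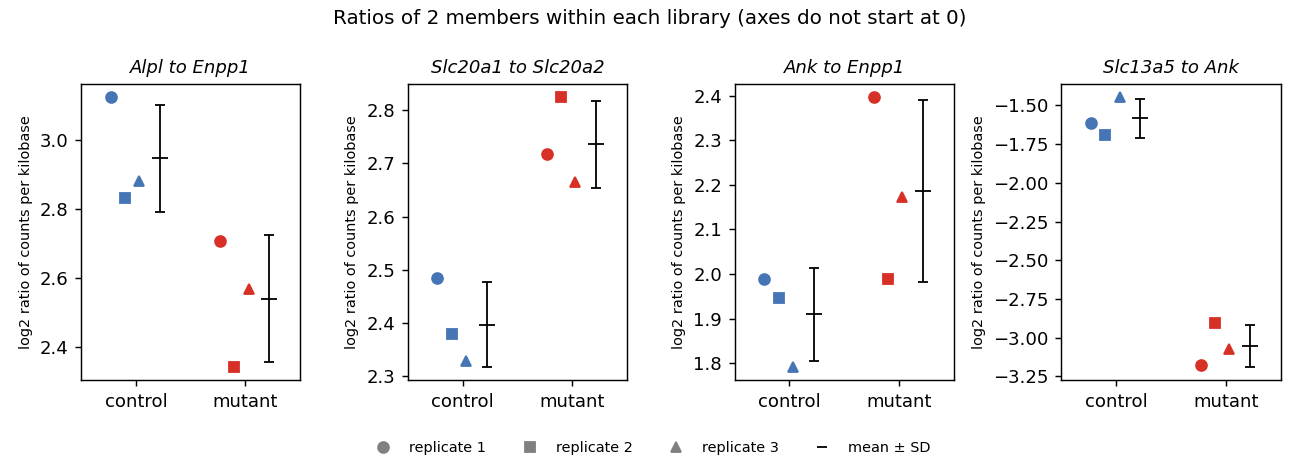
Log2 ratio of the counts per kilobase of 2 members within each library, for 4 pairs of genes, in control (blue) and mutant (red) pools, with the mean ± SD of 3 libraries. The vertical axes differ and do not start at 0. Alpl to Enpp1 and Slc13a5 to Ank are lower and Slc20a1 to Slc20a2 is higher in every mutant library than in every control library.

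Across the 6 libraries the members did not follow a single pattern. By Pearson correlation of log2 CPM, given as a description since the libraries share the genotype difference, Slc13a5 was most like Alpl (r = 0.694, and r = 0.897 after centring within genotype). Ank was most like Enpp1 (r = 0.864, centred 0.832), Slc20a1 most like Enpp1 (r = 0.723, centred 0.628) and Slc20a2 most like Slc20a1 (r = 0.678, centred 0.962). Phex was most like Slc13a5 (r = 0.626), but within genotype the pair ran in opposite directions (r = -0.899). After centring the nearest members changed for some genes, to Enpp1 for Slc13a5 (r = 0.927), to Alpl for Ank (r = 0.935) and to Slc20a2 for Slc20a1 (r = 0.962).

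Over all 16151 other genes tested, the gene most like Slc13a5 was Ppa1, which encodes a cytosolic inorganic pyrophosphatase that splits pyrophosphate into phosphate (r = 0.994 over the 6 libraries, 0.985 after centring within genotype, with the libraries in the same rank order). It lies on chromosome 10 from 61648552 to 61674168 on the forward strand. Ppa1 was at 623, 563 and 454 CPM in control and at 344, 314 and 288 CPM in mutant replicates 1, 2 and 3. The next were 1700010K24Rik (r = 0.990), Nrgn (r = 0.989), Nrm (r = 0.986) and Bcl7a (r = 0.986). A ranking of so many genes over 6 libraries puts many close to the top, and 108 genes had r above 0.9. Each of these 5 genes had a lower mean in mutants, as a gene must that resembles Slc13a5.

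**Figure D5:**
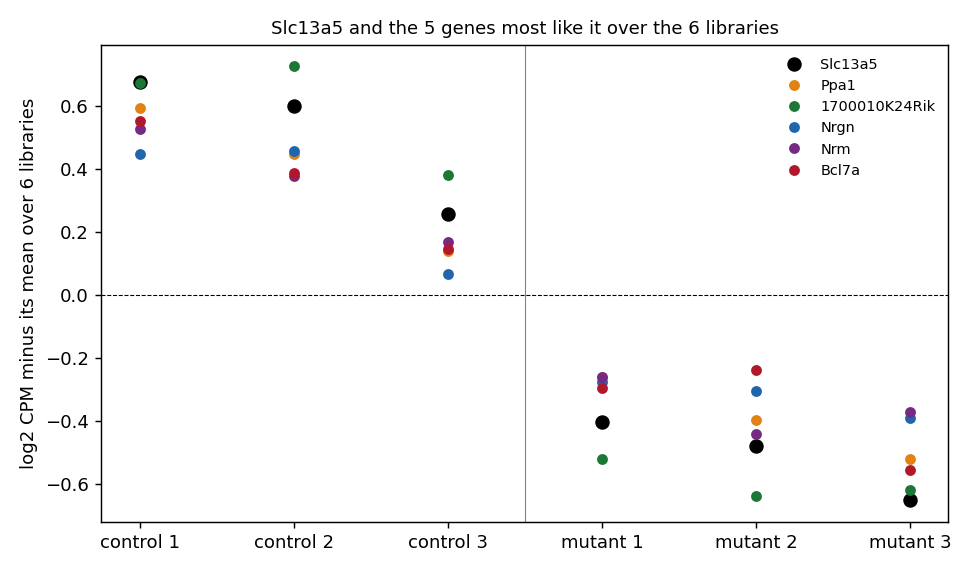
Log2 CPM of Slc13a5 (black) and of the 5 genes most correlated with it, each minus its own mean over the 6 libraries, by library. All 6 genes lie above 0 in the 3 control and below 0 in the 3 mutant libraries, a similarity for which the 5 were chosen.

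The wider pathway was described with 4 lists of 60 genes in all, of which 47 had enough counts. At an unadjusted p under 0.05 in edgeR, 3 were lower and 1 was higher, and none passed after adjustment in edgeR, while DESeq2 called Ppa1 alone (adjusted p = 0.00800). This is 4 of 47, beside 7.21% of all genes, and the median log2 fold change was -0.02. Groups did not overlap for 8 of the 47, against 11.4% of all genes.

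Among 14 genes of matrix vesicles and phosphatases, 13 were tested, 1 fell and 1 rose, with a median log2 fold change of 0.00. The one that fell was Ppa1, from 547 ± 85.4 to 315 ± 28.4 CPM (log2 fold change -0.79 ± 0.20, SE, adjusted p = 0.625 from edgeR), and it passed the unadjusted threshold with any library left out. Car2, the carbonic anhydrase of osteoclasts and red blood cells, rose from 7.68 ± 3.50 to 16.2 ± 4.27 CPM (log2 fold change 1.08 ± 0.35, SE, adjusted p = 0.676 from edgeR), although 1 control and 1 mutant library overlapped. Red blood cell precursor markers moved beside Car2, with 5 of 5 tested higher, 1 of them past the unadjusted threshold, and a sum of 19.3 to 172 CPM in control and 118 to 266 CPM in mutant libraries. Of 5 osteoclast markers 3 were tested, 2 of them higher and 1 lower with none past the threshold, and the sums were 106 to 159 CPM in control and 82.3 to 214 CPM in mutant libraries. Neutrophil precursor markers also had higher means, 7 of 7 tested, with 2 past the unadjusted threshold. Their sums were 11.5 to 46.9 CPM in control and 28.2 to 125 CPM in mutant libraries. The part of any of these cell types in the level of Car2 was not tested. Anxa2, a calcium-binding annexin of matrix vesicles, had the highest mean level of this list over the 6 libraries and gave 521 ± 58.3 and 531 ± 7.79 CPM. Smpd3, the sphingomyelinase of mineralizing cartilage, had 0 counts in all libraries, and lies inside Gm26786 on the same strand, with which, unlike Phospho1 and Zfp652, it shares 0 exon bases.

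Phosphate, pyrophosphate and nucleotide handling took in 14 genes, of which 9 were tested and 1 fell. This was Enpp3, a relative of Enpp1 on the same chromosome from 24772406 to 24842823, at 2.14, 3.77 and 6.02 CPM in control and 1.48, 1.63 and 1.70 CPM in mutant libraries. Its log2 fold change was -1.31 ± 0.53 (SE, adjusted p = 0.676 from edgeR), and without control replicate 3 it was -0.87 and did not pass the unadjusted threshold. Nor did it pass with a replicate block, without control replicate 2 or without any 1 mutant library. The sodium-phosphate cotransporters Slc34a1, Slc34a2 and Slc34a3 were below the filter. Slc29a1, a nucleoside transporter, and Nt5e, which makes adenosine from AMP, were the most abundant of the list, at 439 and 56.6 CPM over all libraries, and neither passed the unadjusted threshold.

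Citrate transport and metabolism gave no call in edgeR among 11 tested of 14 genes, and the median log2 fold change was 0.03. Slc16a1, a monocarboxylate transporter, was at 15.0, 15.0 and 12.9 CPM in control and at 11.2, 10.9 and 7.86 CPM in mutant libraries, without overlap. Its log2 fold change of -0.51 ± 0.24 (SE, adjusted p = 0.691 from edgeR) did not pass the unadjusted threshold in edgeR, but it did in limma-voom (-0.61). The relatives Slc13a1, Slc13a2 and Slc13a3 were below the filter, although Slc13a1 passed the unadjusted threshold when no filter was used, and Slc13a4, a sulfate transporter, was at 2.76 ± 1.68 CPM in control and 1.58 ± 0.263 CPM in mutant IVDs (log2 fold change -0.81, adjusted p = 0.788 from edgeR, and -0.17 without control replicate 3). Mdh2, the malate dehydrogenase of the mitochondrial citrate cycle, was at 99.8 ± 9.29 and 99.2 ± 9.04 CPM.

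Mineral matrix proteins and hormonal regulators made up 18 genes, of which 14 were tested and 1 fell. Pth1r, the receptor of parathyroid hormone and of the parathyroid hormone-related protein, was at 1092, 798 and 621 CPM in control and at 512, 475 and 549 CPM in mutant libraries. It fell from 837 ± 238 to 512 ± 37.4 CPM (log2 fold change -0.71 ± 0.24, SE, adjusted p = 0.676 from edgeR), and without control replicate 1 it was -0.47 and did not pass the unadjusted threshold. Mgp, the matrix inhibitor of calcification, was at 892 ± 312 and 629 ± 49.5 CPM (log2 fold change -0.50, adjusted p = 0.725 from edgeR). For Mgp the log2 fold change was -0.69 without control replicate 1, which passed the unadjusted threshold, and -0.20 without control replicate 2, and it also passed in DESeq2 and limma-voom. Spp1, the acidic phosphoprotein osteopontin, was at 658 ± 68.3 and 796 ± 27.6 CPM (adjusted p = 0.787 from edgeR), with every mutant library above every control library.

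Markers of cells that mineralize their matrix moved beside these genes. Of 5 hypertrophic chondrocyte markers all 5 had lower means in mutants and 3 passed the unadjusted threshold in edgeR, against 7.21% of all genes. Their summed level was 582 to 1145 CPM in control and 313 to 554 CPM in mutant libraries. The 3 were Ihh, the signal of prehypertrophic chondrocytes (log2 fold change -1.49), Mef2c (-0.66) and Runx2 (-0.55). Col10a1 (-0.91) and Mmp13 (-0.36) did not pass, and their groups overlapped, as did those of Mef2c. Mef2c was at 139, 85.3 and 120 CPM in control and at 59.4, 96.9 and 61.8 CPM in mutant replicates 1, 2 and 3, so it was highest in the library with muscle RNA. Col10a1 was at 640 CPM in control replicate 1, against 330 and 226 CPM in control replicates 2 and 3. Mutant libraries had 116 to 328 CPM of it. None of the 5 was at or near 0 in the libraries. Of 8 osteoblast and osteocyte markers, the cells in which Phex is best known, 6 were higher and 2 lower, 2 of the higher past the threshold (Bglap, log2 fold change 1.64, and Bglap2, 1.31), with sums of 375 to 592 CPM in control and 467 to 745 CPM in mutant libraries. Of the 7 disc and cartilage markers, Col2a1 and Sox9 had higher and the other 5 lower means on the log2 scale in mutants, with a median log2 fold change of -0.29. Hapln1 (-0.38) and Matn3 (-0.78) did not overlap between genotypes, and Matn3 passed the unadjusted threshold. Of 6 annulus and tendon markers 5 were higher and 1 lower, with a median log2 fold change of 0.71. Past the unadjusted threshold were 3 of the higher, Tnmd (0.96), Thbs4 (1.09) and Col1a1 (1.05). These markers summed to 6763 to 16889 CPM in control and 15305 to 25262 CPM in mutant libraries. The part of all these marker lists in the levels of Slc13a5, Alpl and Phex was not tested.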

How the data were processed

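Poly(A) RNA of pooled IVDs was sequenced in paired ends. The authors deposited raw read counts per gene symbol, without normalization. The submitters' processing notes name STAR 2.5.3a, HTSeq and DESeq2 with mm10, whereas the methods name Cutadapt, HISAT2 and StringTie, and the strand setting of the counting is not given in the sources used here. The authors' table of their own fold changes and p-values was not used. Reads that the counting assigned to no gene (39.4% to 43.3% of reads), ambiguous (0.846% to 1.05%) and not aligned (12.0% to 18.9%) were left out. Where the reads assigned to no gene lie was not tested.

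Counts were normalized by TMM and filtered by filterByExpr (count minimum 10). The quasi-likelihood test of edgeR 4.0.16 in R 4.3.3 was applied to the remaining 16152 genes at an unadjusted p of 0.05, with Benjamini-Hochberg adjustment over all genes. The standard error is the log2 fold change divided by the square root of F. The methods' Ballgown test needs values not used here. The fit was tested on simulated data. Floors at these depths concern counting error alone. Lengths are exon bases of GENCODE M21 (GRCm38), correlations use log2 CPM with a prior count of 2.

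All 8 members are named, with pathway genes at an unadjusted p under 0.05 and the 2 most abundant per list, the 5 genes most correlated with Slc13a5, overlapping genes, and list markers. One gene that this rule names is not reported here. Members and lists were chosen with earlier results of these data known. The counts of genes lying inside others, the ratios of Ank to Enpp1 and of Slc13a5 to Ank, and the mention of Smpd3, Slc13a4, Slc16a1 and Slc34 genes were added after values were seen.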

Additional observations from a re-analysis of the deposited data

How the results depend on the processing

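The settings tried were RLE size factors, no filter on low counts, a replicate block, DESeq2 1.42.0, limma-voom 3.58.1 with quality weights, each library left out, and the longest transcript as length. Members other than Slc13a5 at an unadjusted p under 0.05 numbered 1, but 0 with the replicate block, 2 with DESeq2 (Phex and Ank), 0 with limma-voom and 0 to 2 with a library left out. None passed adjustment under any of the 11. Pathway genes past the unadjusted threshold numbered 4, but 8 with limma-voom and 3 to 6 under the other settings, and after adjustment DESeq2 called 1 (Ppa1) and the other settings 0. Over all genes 1164 passed, but 1476 with limma-voom, 1227 with DESeq2, 598 without control replicate 3 and 1964 without control replicate 1, and 2276 of 26418 without the filter. For Slc20a2 the log2 fold change ranged from -0.21 to 0.06 with a library left out, and was 0.058 without control replicate 1. Phex passed in 5 of 11 alternatives, and did not with the replicate block, with limma-voom, or without control replicate 3 or any 1 mutant library. The causes were not tested. Same-numbered libraries correlated at 0.16, -0.13 and 0.10 in their deviations, so they share only a number, and the block gave 1002 genes. Slc13a5, Ank, Enpp1, Slc20a1, Alpl and Phex kept their direction under all 11, and both ratios of Alpl to Enpp1 and of Slc20a1 to Slc20a2 theirs with any library left out. By the longest transcript Alpl was at 211, Slc20a1 at 35.9, Slc13a5 at 31.6, Enpp1 at 25.7 and Slc20a2 at 7.00 CPM per kilobase in controls. Counts of 38 to 155 limit Phex.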
